A study of Sus scrofa domesticus with 6 samples.

Results

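Macrophages of control pig lung were described in 3 droplet single-cell RNA libraries, each made from the right lung of a transplant donor. A cell was counted as a macrophage when it had at least 1000 UMIs (the tags by which captured RNA molecules are counted), at most 20% mitochondrial UMIs, at least 5 UMIs summed over CD163, MARCO, MSR1, MRC1, C1QA, C1QB and C1QC, and 0 UMIs of the lymphocyte genes CD3E, CD79A and MS4A1. This gave 830 macrophages among 17225 kept control cells, or 170, 275 and 385 cells in controls 1, 2 and 3. The series was built to follow injury in a pig lung allograft after 24 hours of cold storage and 8 hours of reperfusion. Its 6 libraries hold 43322 cells; the graft libraries were sorted for CD45 and were not used here. The control tissue was not reperfused and not sorted: it was perfused backwards through its vessels, digested with enzymes and freed of red cells by lysis, and the whole suspension was loaded. The labels do not tie a library to an animal, so spread between libraries is spread between these samples, which may be in part technical.

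Lung macrophages are long-lived phagocytes. Alveolar macrophages sit in the air spaces and take up surfactant and debris, interstitial macrophages sit in the tissue around vessels and airways, and pigs also carry intravascular macrophages on the walls of lung capillaries. CD163 takes up haemoglobin bound to haptoglobin, MSR1 and MARCO are scavenger receptors, MRC1 is the mannose receptor, and C1QA, C1QB and C1QC encode the chains of C1q, which starts the classical complement pathway.

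Macrophages made up 3.62% (95% exact Clopper-Pearson interval 3.11 to 4.2), 4.33% (3.84 to 4.86) and 6.23% (5.64 to 6.86) of kept cells in controls 1, 2 and 3, a mean of 4.73% ± 1.35 (SD, n = 3). These intervals, like all intervals here, cover counting error only. Macrophages held more UMIs than the other cells, with a median of 10556.5, 7583 and 7553 UMIs per macrophage against 2834.5, 3060 and 2988 per other cell. Since the gate counts UMIs, deep cells pass it more easily: with every cell thinned to 1000 UMIs it passed 366 cells, a mean share of 2.04%. The median macrophage had 28 gate UMIs (quartiles 11 and 74), and 53 cells sat at exactly 5. CSF1R, the receptor for the macrophage growth factor CSF1, was detected in 62.3% of those 53 cells and in 55.2% of the 67 cells with 4 gate UMIs, which were left out.

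Of the 4 genes meant to mark these cells, CD163, MSR1 and C1QA were present and MARCO was close to absent. CD163 stood at 780.0, 794 and 813 CPM (the gene's share of all UMIs of the macrophages of controls 1, 2 and 3, scaled to 1000000), against 15.5, 21.2 and 14.6 CPM in all other cells of the same libraries. MSR1 stood at 430.0, 372 and 329 CPM against 7.73, 9.09 and 7.99 CPM. MARCO, by which alveolar macrophages are often recognised, stood at 2.68, 30.5 and 2.30 CPM against 4.06, 0.965 and 0.746 CPM. The gate chose cells on these genes, so the values describe the choice and were not tested. CD163 was detected in 89.4%, 88.4% and 85.7% of macrophages and in 2.16%, 2.84% and 1.80% of CD3E-positive T cells, which should lack it (median 3671, 3792.5 and 3754 UMIs per cell). With all cells thinned to 1000 UMIs the shares were 49.4%, 53.1% and 50.4% of macrophages against 0.576%, 0.853% and 0.763% of CD3E-positive cells. MARCO was detected in 2.41% of macrophages (1.48 to 3.70), and FABP4, a fatty-acid carrier of alveolar macrophages, in 1.57%. CD36, CSF2RA, MCEMP1 and ITGAX, other genes of alveolar macrophages, were not analysed here. In Sscrofa11.1, CD163 lies at chr5:63300200-63334497, MSR1 at chr17:3859903-3939612, MARCO at chr15:24502935-24541286 and C1QA at chr6:80586259-80589213.

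Genes of phagocytosis, lysosomes and chemotaxis marked the macrophages off from the rest of each library. Of 2403 genes with at least 50 CPM in macrophages, 248 were at least 4-fold higher in all 3 libraries (10.3%). These include 6 of the 7 gate genes, all but MARCO. Of 2420 genes with at least 50 CPM in the rest, 118 were at least 4-fold lower (4.88%). The cells were chosen by genes of the same contrast, so these counts are descriptions without a test. SPP1 (osteopontin, a secreted matrix protein) stood at 3174, 4354 and 1486 CPM in macrophages, against 78.6, 129.8 and 36.2 CPM in other cells. TREM2, a lipid-sensing receptor, stood at 175, 112 and 109 CPM against 2.66, 3.10 and 1.46 CPM. The smallest difference from the rest was 33.5-fold for SPP1 and 36.1-fold for TREM2, and SPP1 was lowest in control 3 in both macrophages and other cells.

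The 20 genes named by the size of their smallest fold over the 3 libraries included SPP1, TREM2 and 3 complement genes. VSIG4, a complement receptor of tissue macrophages, stood at 194, 182 and 235 CPM against 4.41, 5.86 and 3.44 CPM in other cells. C4BPA, which encodes a chain of a complement inhibitor, stood at 333, 360.1 and 371 CPM against 3.10, 12.8 and 5.58 CPM, and C5AR1, the receptor for the fragment C5a, at 169, 148 and 175 CPM against 6.64, 8.32 and 4.87 CPM. Not all of the pathway was higher: 3 of the 10 complement genes with at least 50 CPM reached 4-fold, while C3, the central component, stood at 340.2, 293 and 767 CPM in macrophages and 588, 1431 and 1765 CPM in the rest. The other genes of the 20 were RNF128, MPEG1, CTSL, CCL8, LYZ, CXCL14, SLC2A5, GPNMB, IGSF6, SLC11A1, CD68, HNMT, CSF1R, OLR1 and ARG1. They include antibacterial effectors (LYZ, lysozyme, and MPEG1, a pore-forming protein), the phagosomal metal transporter SLC11A1, and ARG1, arginase 1. ARG1 stood at 568, 796 and 646 CPM against 32.2, 36.3 and 18.3 CPM in other cells.

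**Figure D1:**
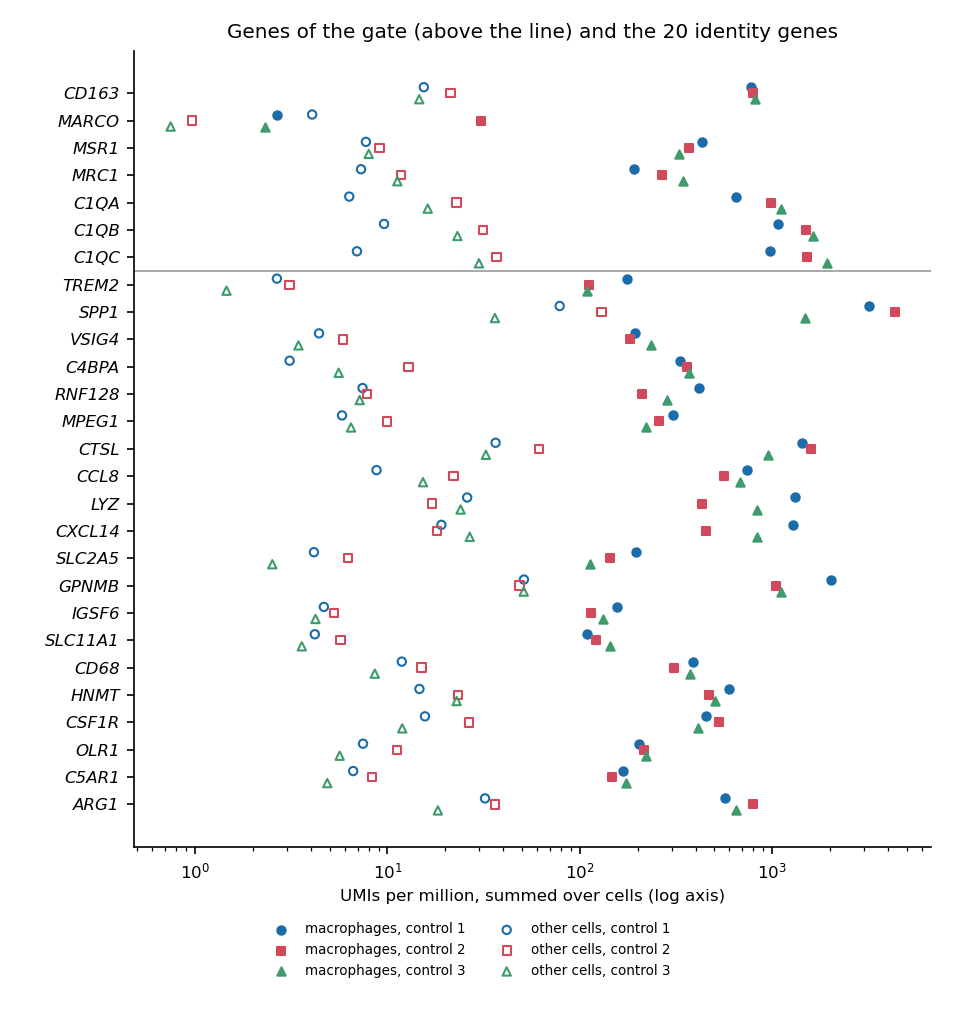
CPM (log axis) of the 7 gate genes and the 20 identity genes in macrophages (filled) and in all other cells (open) of controls 1 to 3, with 1 point per library. Filled points lie to the right of open ones of the same library for every gene except MARCO in control 1, where macrophages had 2.68 CPM and other cells 4.06 CPM.

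Among the gene lists, most lysosomal genes and most scavenger receptors were higher in macrophages. In all, 17 of 23 lysosomal genes with at least 50 CPM were at least 4-fold higher in macrophages in every library. Over all genes with at least 50 CPM the share was 10.3%. Their summed level was 32313, 26032 and 24850.0 CPM in macrophages and 2603, 3213 and 2922 CPM in the rest. LGMN, the protease legumain, had 5295, 4429 and 3857 CPM against 185, 275 and 235 CPM. Of the scavenger and phagocytic receptors 8 of 10 reached 4-fold, of the lipid handling genes 7 of 10, of the iron and heme genes 5 of 7 and of the pattern recognition genes 5 of 8. APOE, a lipid carrier, had 3225, 2545 and 3539.8 CPM against 134, 329 and 190.0 CPM, and HMOX1, which degrades heme, 200.0, 217 and 299 CPM against 20.3, 28.7 and 29.1 CPM. Chemokines were high as well: CXCL8, which attracts neutrophils, had 2298, 3033 and 2964 CPM against 106, 179 and 88.3 CPM. In the list of cytokines and chemokines, 8 of 15 genes reached 4-fold.

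Antigen presentation, interferon and stress genes separated macrophages less than lysosomal genes did. The lowest fold over the rest among the 3 libraries had a median of 2.25 for MHC class II and costimulatory genes. It was 1.86 for interferon response genes, 1.16 for immediate early and stress genes, 7.67 for lysosomal genes and 1.05 over all genes. CD74, the invariant chain of MHC class II, had 2699, 3719 and 3004 CPM in macrophages against 1319, 1619 and 1050.1 CPM in the rest, and 1 of 8 MHC class II and costimulatory genes reached 4-fold. For interferon response genes it was 1 of 8, for the 3 proliferation genes with at least 50 CPM none, and for immediate early and dissociation stress genes 0 of 15. With 10.3% of all genes reaching 4-fold, 1 of 8 is near the share of any genes. FOS, an immediate early gene that digestion of tissue can raise, had 2662, 2748 and 2581 CPM in macrophages and 1406, 1697 and 1681 CPM in other cells. Among cytokine receptors 5 of 13 genes, and among macrophage transcription factors 6 of 14, reached 4-fold.

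Markers of lymphocytes were low in these cells, partly because the gate excluded 3 of them. CD3D was at 2.68, 2.01 and 0.256 CPM in macrophages against 106, 116 and 95.6 CPM in the rest. NKG7, a granule gene of cytotoxic lymphocytes, was an exception at 182, 202 and 211 CPM against 95.9, 112 and 98.6 CPM, while GNLY was at 9.82, 27.9 and 6.91 CPM against 302, 461 and 365 CPM. Fibroblast collagen was lower in the macrophages but unequal between libraries, with COL1A1 at 6.25, 60.4 and 169.7 CPM against 619, 1876 and 3351 CPM in other cells. A COL1A1 UMI was found in 6.47%, 16.7% and 24.9% of macrophages and in 3.10%, 12.1% and 17.8% of CD3E-positive cells. CD3E-positive cells do not make collagen, and they held fewer UMIs per cell than macrophages. With all cells thinned to equal depth, as for CD163, COL1A1 was found in 0%, 2.55% and 6.75% of macrophages. Among thinned CD3E-positive cells the shares were 0.936%, 4.95% and 8.19%, higher than in macrophages in each library. The summed level of the 5 fibroblast markers was 40.6, 276 and 768 CPM in macrophages and 2965, 8969 and 16092 CPM in the rest. Requiring 0 UMIs of 11 markers of other lineages, NKG7 among them, left 127 cells.

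Clustering divided the 830 macrophages into 8 clusters, of which clusters 1 to 3 held 671 cells (80.8%). Genes that lead a cluster were used to form it, so they describe it and were not tested. Cluster 1 (303 cells) was led by CXCL14, SPP1, TREM2, SCD and RARRES1. SPP1 stood at 3992, 6973 and 3840.1 CPM in its cells of controls 1, 2 and 3, against 292, 902 and 698 CPM in cluster 2 and 185, 479 and 52.0 CPM in cluster 3. GPNMB, a glycoprotein of lysosomes, stood at 2507, 1499 and 2589 CPM in cluster 1, against 292, 447 and 364 CPM in cluster 2. Its 23 lysosomal genes summed to 37223, 32668 and 40752 CPM, against 18046, 20365 and 20218 CPM in cluster 2 and 18678, 24651 and 16702 CPM in cluster 3. FABP4 was found in cluster 1 alone, at 180.3, 8.48 and 74.0 CPM and in 4.29% of its cells; the other 7 clusters had 0 UMIs of it.

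Cluster 2 (205 cells) was led by TTLL7, FOLR2, NDRG2 and C1QA, and it held the highest C1q and MHC class II levels of the 3. C1QA stood at 4313, 5235 and 4052 CPM, against 329.8, 318 and 559 CPM in cluster 1 and 789, 627 and 483 CPM in cluster 3. C4BPA stood at 1456, 1777 and 1469.8 CPM, against 268, 225 and 314 CPM in cluster 1 and 0 UMIs in cluster 3. FOLR2, a folate receptor of tissue macrophages, stood at 81.2, 115 and 120.3 CPM, against 3.49, 2.26 and 5.18 CPM in cluster 1 and at most 0.732 CPM in cluster 3. CSF1R stood at 795, 1031 and 936 CPM, against 415, 453 and 406 CPM in cluster 1. The listed MHC class II and costimulatory genes summed to 15151, 14737 and 13025 CPM, against 5124, 6552 and 5618 CPM in cluster 1 and 6805, 5193 and 5203 CPM in cluster 3. CCL2, which attracts monocytes, stood at 1055, 1821 and 2702 CPM in cluster 2 and 1112, 1441 and 1593 CPM in cluster 1, but 369.9, 13.4 and 6.59 CPM in cluster 3.

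Cluster 3 (163 cells) was led by genes that the other 2 hardly carried. FCN2, ficolin 2, a lectin that activates complement, stood at 2490.4, 3172 and 4435 CPM, against 2.33, 1.13 and 3.70 CPM in cluster 1 and 0, 2.74 and 1.47 CPM in cluster 2. DUOX2 and its maturation factor DUOXA2, which make hydrogen peroxide, came with LCN2, which binds bacterial iron carriers, PON1, CIDEC, BTC, ITIH5, CDC42EP3 and MT1A. DUOX2 stood at 74.0, 278 and 305 CPM, against at most 2.96 CPM in cluster 1 and 5.41 CPM in cluster 2. The calcium-binding proteins S100A12 and S100A8, which monocytes and neutrophils also carry, stood at 9690.4, 5784 and 6862 CPM and at 2947, 1703 and 1584 CPM, against 423, 491 and 242 CPM and 229.8, 331 and 124 CPM in cluster 1. PPARG, the transcription factor of alveolar macrophages, stood at 136, 246 and 328 CPM, against 52.9, 52.0 and 57.0 CPM in cluster 1. The 6 alveolar genes FABP4, FABP5, PPARG, INHBA, FBP1 and CSF2RB ran the other way as a sum, at 715, 1322 and 994 CPM in cluster 3 against 1797, 1668 and 1592 CPM in cluster 1. MARCO was nearly absent in all 3 clusters, at 5.41 CPM or less in each library.

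**Figure D2:**
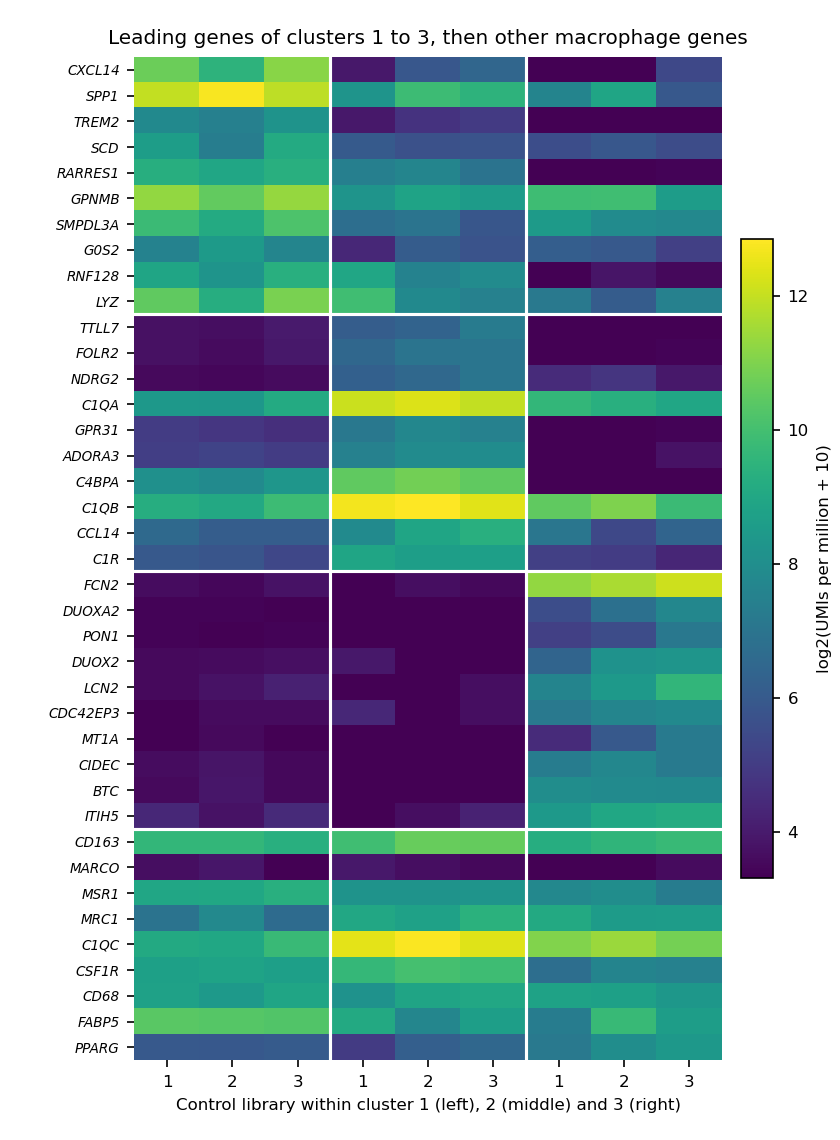
log2 of CPM plus 10 for the 10 leading genes of clusters 1, 2 and 3 (first 3 blocks of rows) and for other macrophage genes (last block), in each control library. Leading genes keep their cluster across the 3 libraries, as for C1QA at 4313, 5235 and 4052 CPM in cluster 2 and FCN2 at 2490.4, 3172 and 4435 CPM in cluster 3, while MARCO is dark in all 9 columns.

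The clusters differed in depth: the median cell held 12231 UMIs in cluster 1, 4930 in cluster 2 and 8377 in cluster 3, with 5.06%, 3.17% and 8.42% mitochondrial UMIs. Their shares varied between libraries, and for cluster 1 no 2 of the 3 intervals overlap. Cluster 1 made up 62.4% (54.6 to 69.7), 42.9% (37.0 to 49.0) and 20.5% (16.6 to 24.9) of the macrophages of controls 1, 2 and 3. Cluster 2 made up 16.5% (11.2 to 22.9), 21.5% (16.8 to 26.8) and 30.6% (26.1 to 35.5). Cluster 3 made up 3.53% (1.31 to 7.52), 9.09% (5.97 to 13.1) and 34.3% (29.6 to 39.3), and 132 of its 163 cells came from control 3. With 1 library per sample, sample and library cannot be told apart here. Leaving the gate genes out of the clustering also gave 8 clusters, and the cells of clusters 1, 2 and 3 stayed together at 83.8%, 80.5% and 100%. The number of clusters moved with the resolution: 11 at 1.0 and 6 at 0.3. At 1.0 the cells of clusters 1, 2 and 3 stayed together at 75.2%, 74.1% and 100%.

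The other 159 cells fell in clusters 4 to 8, where markers of other cell types stood beside the gate genes. Such markers were not confined to them. In cluster 3 monocyte markers summed to 8757 CPM and neutrophil markers to 1754 CPM, against 1009 and 316 CPM in the other macrophages. Cluster 4 (60 cells) was led by CCL22 and FLT3, dendritic cell genes, and had CD163 at 108 CPM. Cluster 7 (23 cells) had all 5 endothelial and all 5 fibroblast markers at more than 2-fold over the other macrophages, with LYVE1, a receptor of lymphatic vessels and of some macrophages, at 1311 CPM. Cluster 6 (32 cells, median 2434 UMIs) was led by SFTPC, the surfactant gene of alveolar epithelium, and cluster 5 (33 cells) by FAP and HEATR9. HBB, a globin, stood at 13836 CPM in the 4 cells of cluster 5 from control 1, but at 29.7 and 10.3 CPM in those of controls 2 and 3. Cluster 8 (11 cells) came from control 2 alone and held most of the MARCO signal, at 669 CPM, with SERPINB2, PPBP and SLPI. The part of mixed droplets in these signals was not tested. In clusters 1 to 3 alone, 258 genes were at least 4-fold higher than in the rest.

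**Figure D3:**
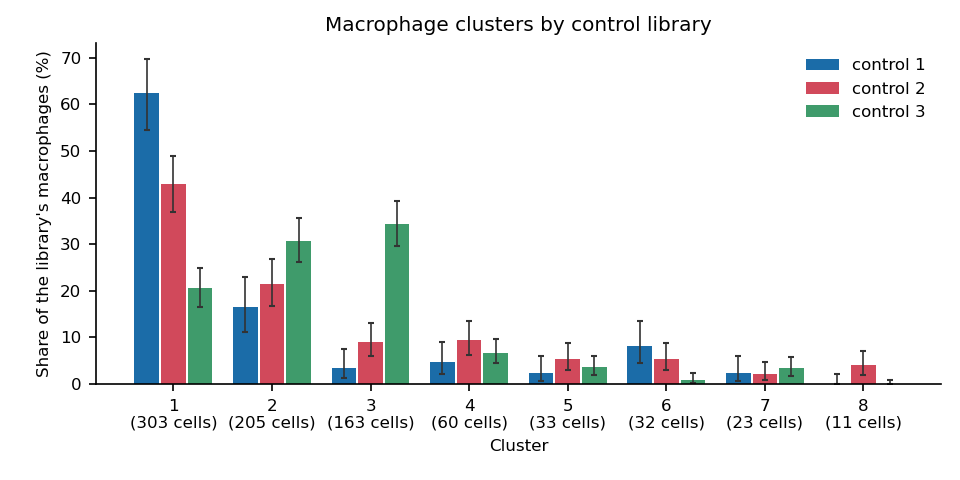
Share of each library's macrophages (%) in clusters 1 to 8, with bars per control library and 95% exact binomial intervals for counting error. Cluster 1 is largest in control 1 (62.4%) and smallest in control 3 (20.5%), and cluster 3 runs the other way (3.53% and 34.3%).

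Few genes differed strongly between the macrophages of the 3 libraries. Of 1642 genes with at least 100 CPM in 1 library, 22 (1.34%) were at least 4-fold apart between the highest and the lowest library, and the median ratio was 1.26. The genes of cluster 3 followed its share: FCN2 had 92.0, 247 and 1556 CPM in the macrophages of controls 1, 2 and 3, and LCN2 8.04, 31.2 and 270.2 CPM. Collagen genes did so too: COL3A1 had 13.8, 97.0 and 241 CPM in macrophages, in the same order as the 928, 2630.4 and 5456 CPM of other cells. PEBP4 had 2.68, 1.01 and 140.0 CPM in macrophages and 4.85, 4.19 and 193 CPM in other cells, so it was highest in control 3 in both. FCN2 in other cells had 0.742, 16.7 and 26.0 CPM, in the same order as in macrophages. FABP4 did not follow the other cells, with 138, 5.03 and 25.6 CPM in macrophages against 1.75, 4.73 and 5.86 CPM in the rest. It was detected in only 4.12%, 0.727% and 1.04% of macrophages (310, 15 and 100 UMIs), so its spread rests on few cells. Within clusters 1 to 3, 20 genes were 4-fold apart.

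**Figure D4:**
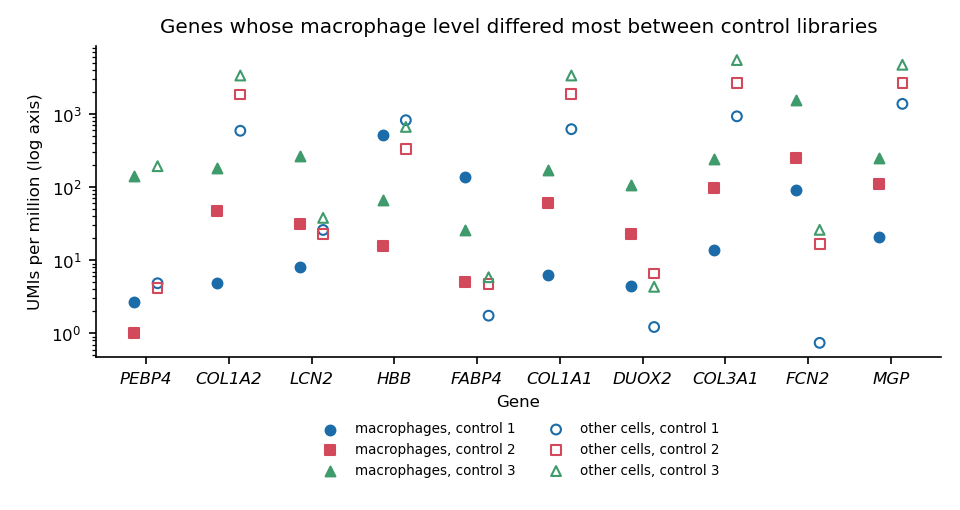
CPM (log axis) of the 10 genes with the largest ratio between libraries, in macrophages (filled, left) and other cells (open, right) of controls 1 to 3. For PEBP4, the collagens and FCN2 the open points spread in the same order as the filled ones. FCN2 at 92.0, 247 and 1556 CPM is far above the other cells in each library, which had 0.742, 16.7 and 26.0 CPM.

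To ask what varies along with a tissue or an alveolar marker profile, cells were ranked within each library by the mean log level of 10 tissue macrophage genes (among them FOLR2, LYVE1, MAF, CD209, F13A1, TIMD4, VSIG4, STAB1 and CX3CR1) minus that of 6 alveolar genes (FABP4, FABP5, PPARG, INHBA, FBP1, CSF2RB). The 56, 91 and 128 highest-scoring cells of controls 1, 2 and 3, called tissue-score cells, were set against as many lowest-scoring cells, called alveolar-score cells. Each is a range of a score and not a cell type: 23, 35 and 39 cells lay within 0.05 of the upper limit. Score and gate genes were not tested. Of 8617 other genes, edgeR called 864 (10%) at an adjusted p under 0.05, with 459 (5.33%) higher and 405 (4.70%) lower in tissue-score cells.

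Early complement genes were higher in tissue-score cells, as were markers of fibroblasts (summed at 103, 710.3 and 2493 CPM, against 24.6, 193 and 123 CPM in alveolar-score cells). C1R, a protease of the C1 complex, had 192, 288 and 333 CPM in tissue-score cells of controls 1, 2 and 3, against 46.4, 39.7 and 49.8 CPM in alveolar-score cells (log2 fold change 2.59, SE 0.21, adjusted p = 7.69e-05). CFD, complement factor D, had 274, 295 and 408 CPM against 68.1, 117 and 92.0 CPM (1.84, SE 0.19, adjusted p = 0.000257). The groups did not overlap for either gene. SERPING1, the C1 inhibitor, also rose, with 323, 526 and 595 CPM against 177, 201 and 177 CPM (1.37, SE 0.18, adjusted p = 0.0018). All 3 genes were lower in macrophages as a whole than in the other cells of the library, which had C1R at 264, 649 and 691 CPM, CFD at 291, 650 and 696 CPM and SERPING1 at 292, 694 and 756 CPM. The part of RNA from other cells in their rise was not tested. In all, 6 of 11 tested complement genes rose and none fell, where 5.33% of all genes rose. Their median log2 fold change was 0.81, against -0.0082 over all genes. C1S, one of the 6, did not pass in clusters 1 to 3 (1.21, adjusted p = 0.163). C1R stood at 476, 392 and 405 CPM in cluster 2, against 52.9, 47.5 and 31.1 CPM in cluster 1, and cluster 2 held 49.8% of tissue-score cells and 6.91% of alveolar-score cells.

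Chemokine and growth factor genes followed. Of 23 cytokine and chemokine genes 7 rose and none fell: CCL3L1, HBEGF, IGF1, CCL8, IL18, IL10 and PDGFB. CCL8 had 735, 1007 and 1256 CPM in tissue-score cells, against 444, 275 and 341 CPM in alveolar-score cells (log2 fold change 1.52, SE 0.24, adjusted p = 0.00962). Immediate early and stress genes rose in 10 of 15 cases, ATF3 among them with 1140.2, 1162 and 929 CPM against 591, 529.7 and 486 CPM (1.02, SE 0.13, adjusted p = 0.00142). NDRG2 (3.87, SE 0.38) and PRSS23 (3.56, SE 0.38) were among the largest increases.

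SPP1, LGALS3 and genes of the cell cycle were lower in tissue-score cells. SPP1 had 1351, 1838 and 552 CPM in tissue-score cells, against 4709, 7169 and 1989 CPM in alveolar-score cells (log2 fold change -1.86, SE 0.11, adjusted p = 8.05e-06; adjusted p = 0.23 without the library as a block). LGALS3, the lectin galectin 3, had 1285, 1117 and 830.1 CPM against 3832, 3042 and 3793 CPM (-1.73, SE 0.15, adjusted p = 0.000164). For both genes every library's tissue-score value was below every alveolar-score value. The set without cycling cells, chosen by UMIs of the proliferation genes, left only 44, 82 and 111 macrophages of controls 1, 2 and 3. Those genes include STMN1 and PCNA, at a mean of 205 and 176 CPM in clusters 1 to 3. In that set, with 2046 genes tested, SPP1 turned direction and was not called (0.18, adjusted p = 0.934). The part of the cell cycle in this change was not tested. In the main comparison S100A2, ENPP1, EHF, TREH, CLU and S100A4 fell as well. Of 20 proliferation genes 7 fell and none rose, all of them genes of DNA replication or mitosis (MCM4, PCLAF, TPX2, MCM7, MCM3, TYMS, MCM6). PCLAF, which binds the replication clamp, had 2.34, 20.2 and 4.76 CPM against 70.0, 58.3 and 68.6 CPM. With scores from thinned cells none of SPP1, LGALS3, S100A2, ENPP1, EHF, TREH, CLU, S100A4, MCM4, PCLAF, TPX2 and MCM7 was called (adjusted p 0.064 to 0.839), and TREH turned direction. CCL8 was not called there either. Of 23 lysosomal genes GLA rose and CTSL, CTSZ and GPNMB fell, where 5.33% of all genes rose and 4.70% fell. CTSL lost its call without each control in turn, without the block, with DESeq2 and with thinned scores. CTSZ lost it in the same settings except without control 2. GPNMB lost it without control 1, without control 3 and without the block, and GLA without control 3 and with thinned scores. None of 17 iron and heme genes passed.

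Genes of vessels and connective tissue led the increases by size. MMRN1, a gene of lymphatic endothelium, had 112, 10.9 and 281 CPM in tissue-score cells, against 3.79, 0.778 and 0.586 CPM in alveolar-score cells. CCL21, a chemokine of lymphatic vessels, had 424, 216 and 312 CPM against 26.5, 3.89 and 37.5 CPM. With FABP4, LYVE1 and STAB1 left out of the score the direction turned for MMRN1 (log2 fold change -1.51, adjusted p = 0.0386), CLEC3B (-2.09, adjusted p = 0.0166), CCL21 (-1.42, adjusted p = 0.4) and CAVIN2 (-0.78, adjusted p = 0.301). Cluster 7 held 13 tissue-score cells and 2 alveolar-score cells. Summed over the 5 fibroblast markers, the median cell had 0, 68.5 and 206 CPM, against 0, 52.7 and 90.3 CPM. In clusters 1 to 3 alone, CCL21 did not pass (log2 fold change -0.49, adjusted p = 0.503), and MMRN1 was too low to test. The connective tissue genes DCN (1.78, adjusted p = 0.00187) and CCDC80 (2.01, adjusted p = 0.042) were still called there, as were 2 of 4 fibroblast markers, C1R (2.62), CFD (2.11), NDRG2 (4.88) and SPP1 (-1.83). There 582 genes were higher and 513 lower.

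Depth moved with this score, and the number of calls with both depth and library. The median tissue-score cell had 6057.5, 5948 and 5297 UMIs, against 13371.5, 9947 and 8712 in alveolar-score cells. Their median mitochondrial share was 4.70%, 4.44% and 3.99%, against 5.39%, 5.53% and 6.77%. Scores taken from cells thinned to 1000 UMIs gave 58 called genes in place of 864, and leaving out control 1, 2 or 3 gave 390, 393 and 138. The part of depth in these calls was not tested otherwise. Of the 57 called genes that the naming rule picked, 6 kept their call without each library in turn, without the block, with DESeq2, with thinned scores and in clusters 1 to 3: C1R, CFD, SERPING1, NDRG2, PRSS23 and ATF3. Of these, CFD, SERPING1 and PRSS23 lost it in the smaller set without cycling cells (44, 82 and 111 macrophages). Without control 3, 28 of the 57 lost it (adjusted p 0.0529 to 0.409), CCL8, HBEGF, IGF1, PCLAF and TPX2 among them. MCM7 lost its call whichever library was left out. Without the library block 21 of the 57 lost it (adjusted p 0.0527 to 0.391). In the 127 cells with no UMI of the 11 markers of other lineages, edgeR called 0 of 1177 genes, with 113 at an unadjusted p under 0.05.

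MHC class II gave a second ranking of the macrophages. Cells were ranked within each library by SLA-DMA, SLA-DMB, SLA-DOA, SLA-DQB1 and CD74, and the same numbers of highest-scoring cells (MHC-high) and lowest-scoring cells (MHC-low) were compared. Of 8351 other genes, 535 (6.41%) were called, with 338 (4.05%) higher and 197 (2.36%) lower in MHC-high cells. HLA-DRA, as the files name this MHC class II chain, was not in the score and had 4213, 5047 and 4822 CPM in MHC-high cells of controls 1, 2 and 3, against 595, 1032 and 1017 CPM in MHC-low cells (log2 fold change 2.50, SE 0.13, adjusted p = 1.97e-07). Every MHC-high value exceeded every MHC-low value. HLA-DRA is a class II gene like those that ranked the cells, so its rise describes the ranking and is no separate result. Within 0.05 of the upper limit lay 10, 25 and 20 cells. This ranking overlapped with the tissue score: cluster 2 was the largest part of both tissue-score (49.8%) and MHC-high cells (43.3%). C1R, SERPING1, CSF1R and IRF8 rose with both scores, and CTSL and GPNMB fell with both. For the tissue score IRF8 lost its call without control 1, without control 3, without the block and with thinned scores. CSF1R lost its tissue-score call without control 2, without control 3 and with thinned scores. EGR1 and FOS rose with the tissue score and fell with MHC class II. CD74 itself was higher in tissue-score cells (log2 fold change 0.52, adjusted p = 0.0256). It lost that call without control 1, without control 3, without the block, with DESeq2 and with thinned scores.

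Costimulatory and interferon-related genes rose with MHC class II. CD80 and CD40, which help activate T cells, had 100.0, 126 and 124 CPM and 300.0, 282 and 288 CPM in MHC-high cells, against 34.9, 51.4 and 53.1 CPM and 148, 123 and 159 CPM in MHC-low cells (log2 fold changes 1.37, SE 0.19, and 1.06, SE 0.14). CD86 rose too (0.89, adjusted p = 0.0157), but lost its call without control 1 and without control 2. CXCL11, a chemokine that interferon gamma induces, had 90.3, 106 and 35.9 CPM against 0, 1.29 and 4.68 CPM (adjusted p = 0.00181). CXCL9, of the same kind, had 830.5, 305 and 447 CPM against 8.72, 20.6 and 38.3 CPM (adjusted p = 0.0399, and 0.0706 in clusters 1 to 3), and lost its call without control 2 (adjusted p = 0.133), without control 3 (0.169) and with thinned scores (0.299). Of 19 interferon response genes 4 rose, MX1, IFIT2 and IFI44L among them, and none fell, where 4.05% of all genes rose. IFIT2 and IFI44L lost their call without control 1 and without control 3, and MX1 without the block. The list's median log2 fold change was 0.84, against -0.0031 over all genes. IL18, a cytokine that drives interferon gamma, had 79.2, 56.6 and 60.3 CPM against 19.2, 9.0 and 24.2 CPM (1.90, SE 0.30, adjusted p = 0.00185).

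MHC-high cells also carried more of several macrophage regulators. CST3, the protease inhibitor cystatin C, had 4363, 6013 and 7351 CPM in MHC-high cells, against 1236, 1579.7 and 2102 CPM in MHC-low cells (log2 fold change 1.90, SE 0.10, adjusted p = 1.97e-07). IRF8, a transcription factor of myeloid cells, had 603, 1008 and 802 CPM against 316, 245 and 372 CPM (1.41, SE 0.21). CSF1R had 607, 737 and 586 CPM against 382, 373 and 239 CPM (1.04, SE 0.14), and the groups did not overlap for any of these genes. S1PR2, GPR31, SLAMF8, PRRG4 and TMEM176B were among the 10 largest increases, with log2 fold changes of 2.73, 2.44, 2.41, 2.31 and 2.04. C1R (1.53, SE 0.19) and SERPING1 (1.05, SE 0.14) rose here as well, as did CFP, while C1S fell, of 12 complement genes tested; neither CFP nor C1S was called without control 2.

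Lysosomal and lipid genes ran the other way. Of 23 lysosomal genes 6 fell and GLA rose, where 2.36% of all genes fell and 4.05% rose. CTSL, a lysosomal protease, had 456, 685 and 487 CPM in MHC-high cells, against 2120.4, 2139 and 1603 CPM in MHC-low cells (log2 fold change -1.80, SE 0.13, adjusted p = 3.56e-06, and not called with thinned scores). CTSK, a protease that degrades collagen, had 31.9, 18.9 and 19.8 CPM against 265, 401 and 116 CPM (-3.29, SE 0.31). GPNMB, CTSD, ACP5 and LIPA fell as well. Of 17 lipid handling genes PLIN2, FABP5, APOE and PPARG fell and ALOX5AP rose. PPARG lost its call without each control in turn (adjusted p 0.109 to 0.201), without the block, with DESeq2 and with thinned scores. ALOX5AP lost it without control 2, without the block, with DESeq2, with thinned scores and in clusters 1 to 3. FABP5 lost it without control 1, without control 2, without the block and with thinned scores, and APOE without the block. PLIN2, which coats lipid droplets, had 549.9, 503 and 428 CPM against 851, 784 and 864 CPM (-0.71, SE 0.13, adjusted p = 0.00481). SLC11A1 and the ferritin light chain FTL fell among 18 iron and heme genes, SLC11A1 with 69.4, 60.5 and 65.7 CPM against 171, 194 and 193 CPM (-1.47, SE 0.17). The immediate early genes EGR1, DUSP1, JUN and FOS fell, 4 of 15, JUN not without control 2 and FOS not without control 1 or 2. EGR1 had 426, 330.5 and 464 CPM against 755, 762 and 1032 CPM (-1.01, SE 0.13).

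**Figure D5:**
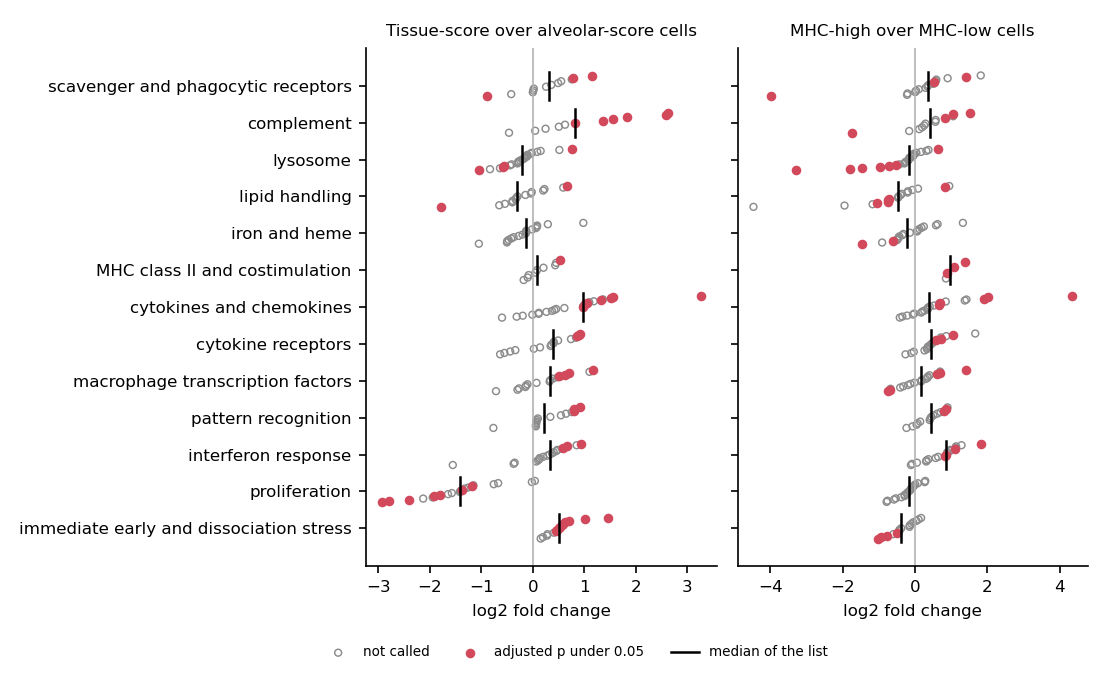
log2 fold change of every tested gene of 13 lists between tissue-score and alveolar-score cells (left) and between MHC-high and MHC-low cells (right), with called genes in red and the list's median as a line. Complement and immediate early genes lie to the right on the left panel and proliferation genes to the left; on the right panel interferon response genes lie to the right and lysosomal genes spread to the left.

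Dendritic and stromal markers moved with the MHC class II score too. Cluster 4 held 48 MHC-high cells and 6 MHC-low cells, and the 3 mature dendritic markers summed to 219, 422 and 482 CPM against 66.3, 37.3 and 196 CPM. Cluster 7 held 3 MHC-high and 17 MHC-low cells; MMRN1, CLEC3B, CCN1, CAVIN2, LYVE1, CD24 and TIMP3, among the 10 largest decreases, were too low to test in clusters 1 to 3. There 228 genes were higher and 106 lower. HLA-DRA (1.97), CST3 (1.81), CD80 (1.56), CTSL (-1.79) and PLIN2 (-0.87) were called there, while CRYBG1 (0.37, adjusted p = 0.654), CD86 and CCL21 (-0.90, adjusted p = 0.195) were not. Without cells that had any UMI of dendritic markers 200 genes were called in place of 535. Without control 2, 227 were, and without control 1, 355. The median cell had 10888, 8786 and 8316.5 UMIs in MHC-high cells, against 7513.5, 6253 and 6849.5 in MHC-low cells. It had 4.45%, 4.10% and 3.97% mitochondrial UMIs, against 5.63%, 5.90% and 7.68%. Scores from thinned cells gave 414 called genes. Cluster 2 made up 43.3% of MHC-high cells and 12.7% of MHC-low cells. Of the 59 called genes that the naming rule picked, 20 kept their call without each library in turn, without the block, with DESeq2, with thinned scores and in clusters 1 to 3. They were HLA-DRA, CST3, CXCL11, S1PR2, GPR31, SLAMF8, PRRG4, TMEM176B, CD80, CD40, IL18, CSF1R, IRF8, AXL, C1R, SERPING1, CTSK, PLIN2, SLC11A1 and EGR1. Without control 2, 20 of the 59 lost it (adjusted p 0.0501 to 0.29), FABP5, FTL, JUN, TYROBP and PDGFB among them. Without the library block 21 of the 59 lost it (adjusted p 0.0567 to 0.72), GPNMB, CTSD, APOE and FTL among them.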

How the data were processed

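Matrices of 3 control libraries were used; the deposited values are raw UMI counts for each gene in each cell. Per the labels' protocols, sequencing on a DNBSEQ-T7 followed a DNBelab C Series HT library kit. Per the file headers PISA wrote the matrices; Sscrofa11.1, Seurat 5.5.3 and R 4.2.2 stand in the submitters' processing notes. An aligner or an annotation is not named in them. The controls held 25802239, 33549585 and 32573142 UMIs in 4957, 6556 and 6365 cells, none under 1001 UMIs. Cell names are serial numbers, so barcodes shared between libraries could not be counted. No doublet caller was run; cells with lymphocyte UMIs were excluded and further exclusions were alternatives. Macrophages were clustered with scanpy 1.11.5 (2000 variable genes, 20 components, 15 neighbours, Leiden resolution 0.5). UMIs were summed per library and score group and tested with edgeR 4.0.16 (TMM, filterByExpr, robust quasi-likelihood), with Benjamini-Hochberg adjustment over all genes tested at 0.05; SE is the log2 change over the square root of F. Both score groups of a library come from the same cell suspension, hence the same lung, so library was a block. P-values measure whether a gene varies with the score in these 3 libraries. The test was first tried on simulated data. CPM are per library without TMM. A list's genes missing under their name were left out, and 137 identifiers took a symbol from the reference table. RefSeq gave positions. Named genes were all gate genes; the 20 of largest lowest-library fold at 100 CPM; per score the 10 largest changes each way at 50 CPM with 1 direction in every library; up to 4 members of each list; the 10 of largest spread; and 10 leading genes per cluster. Levels of further list members were chosen after their values were seen. The members, lists, scores and tests were chosen with earlier results of these data known. Some members of the lists are not reported here.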

Additional observations from a re-analysis of the deposited data

How the results depend on the processing

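The macrophage share moved from 4.73% to 2.04% with the gate applied after thinning and to 0.704% in cells with no UMI of other lineages; without 1 control it was 3.98% to 5.28%. Of the genes at least 4-fold higher, 248, the number was 520 at 2-fold, 118 at 8-fold, 393 from 10 CPM, 495 with no minimum, 79 in cells with no UMI of other lineages, and 271 to 281 without 1 control. For the tissue score, 864 genes were called, and 301 with DESeq2, 520 with all cells divided at the median, 58 with thinned scores, 60 without cycling cells, 0 with no UMI of other lineages and 138 to 393 without 1 control. For MHC class II, 535 were called, and 233 with DESeq2, 888 without a filter on low counts, 22 with no UMI of other lineages, 334 in clusters 1 to 3, 200 without dendritic markers and 227 to 411 without 1 control. The cause of these moves was not tested, except that the cell exclusions and left-out controls leave fewer UMIs.

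Without the replicate block, which pairs the score groups of each library, 434 genes were called for the tissue score and 216 for MHC class II.

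Of the named genes, 57 were called for the tissue score and 59 for MHC class II in the main comparison. Of 1766 values for 140 named results under the alternatives, 1314 kept their status, called or not called. A further 411 lost the call, 30 gained it and 11 turned direction. A turn was counted only where the gene was called in the main comparison or in the alternative. Turns of genes called in neither, such as SLA-DMB for the tissue score (-0.18, and 0.085 in clusters 1 to 3), stand among the 1314. With FABP4, LYVE1 and STAB1 out of the score, MMRN1 (-1.51), CAVIN2 (-0.78), CCL21 (-1.42) and CLEC3B (-2.09) turned. CCL21 (-0.49) turned in clusters 1 to 3, TREH (0.19) and FCGR1A (0.074) with thinned scores, SPP1 (0.18) without cycling cells, and HBEGF (-0.27), KLF4 (-0.060) and BTG2 (-0.11) with no UMI of other lineages. These log2 fold changes are for the tissue score.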

Other observations

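Signals of other lineages fell unevenly on the clusters. NKG7 had 222, 502 and 299 CPM in cluster 3 of controls 1, 2 and 3, against 195, 203 and 206 CPM in cluster 1 and 157, 195 and 135 CPM in cluster 2. CCR7, which guides dendritic cells to lymph nodes, had 739.5 CPM in cluster 4, and 319, 359 and 471 CPM in cluster 2, against 62.8, 139.6 and 101 CPM in cluster 1 and at most 2.93 CPM in cluster 3. CEBPB, a transcription factor of myeloid cells, had 604, 1066 and 1245 CPM in cluster 3, against 411, 538 and 479.7 CPM in cluster 2. Control 1 gave 6 cells to cluster 3, so its values there rest on few cells. These clusters were formed from the same cells, so none of this was tested.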
